A study of Rattus with 6 samples.

Results

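Proteins leave the endoplasmic reticulum (ER) in vesicles built by the COPII coat. In this coat SEC23 and SEC24 form the inner layer that picks cargo, and SEC31 with SEC13 forms the outer cage. Soluble cargo is handed to the coat by membrane receptors: the mannose-binding lectins LMAN1 (ERGIC-53) and LMAN2 (VIP36), and the p24 proteins, among them TMED2 and TMED10. Fibroblasts pass their procollagen through this route, and mutations of SEC23A and SEC24D cause skeletal disorders in humans.

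This account covers 10 genes for these receptors and coat subunits, Lman1, Lman2, Lman2l, Mcfd2, Tmed2, Tmed10, Sec23a, Sec23b, Sec24d and Sec31a, found by symbol among 21378 genes with counts. All 10 were among the 14412 genes tested. The group was chosen by the count-based fold change of Lman2, known to fall strongly in siNONO against siCtrl libraries, so values of that comparison are given for the 10 genes as a description. Their calls are only counted, beside the share over all genes, and nothing is read from them. The cells were commercially supplied cardiac fibroblasts of the rat, which make the extracellular matrix of the heart, and their poly(A)-selected RNA was sequenced. There were 3 libraries titled siNONO, from cells given a Nono siRNA with a lipid reagent, and 3 titled siCtrl. The labels also describe these controls as given an empty vector, and both names cannot be reconciled from the sources used here. NONO, a protein of the nucleus, binds RNA and DNA, and the series asks how the transcriptome differs with and without it. Cells for RT-qPCR and western blots were taken after 48 h per the labels, which give no time for sequencing and do not say that replicates were separate cultures. The p-values below therefore rest on the spread between these libraries alone, and that spread may be technical.

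Total counts ranged from 29692746 to 33365588 in siNONO libraries and from 27792357 to 32869992 in siCtrl libraries. Nono had 69.9, 76.1 and 73.6 CPM (counts per library scaled with TMM, edgeR's trimmed mean normalisation) in siNONO replicates 1, 2 and 3, against 237, 233 and 247 CPM in siCtrl replicates, or 30.7% of the siCtrl level. All 10 fibroblast markers were present, with a summed level of 34381 to 35284 CPM in siNONO and 35642 to 38384 CPM in siCtrl libraries. Most of it came from Col1a1, Col1a2 and Col3a1. At an edgeR adjusted p of 0.05 (Benjamini-Hochberg) 5 of the 10 were lowered and 1 raised, where 15.9% of all genes tested were lowered and 16.2% raised. Lum (-0.91), Postn (-0.64), Dcn (-0.32), Tcf21 (-0.22) and Vim (-0.19) were lowered and Ddr2 (0.13) raised (log2 fold changes, siNONO over siCtrl). Col1a1 (-0.10), Col1a2 (0.06), Col3a1 (0.002) and Pdgfra (0.06) did not pass. Of 11 listed macrophage and leukocyte markers 10 had counts, 1 of them (Cd79a) under 1 CPM in every library. Their summed level was 1277 to 1373 CPM in siNONO and 1331 to 1519 CPM in siCtrl libraries, most of it from Lyz2. Of 9 tested, Csf1r, Adgre1 and Cd14 were lowered (log2 fold changes of -0.30, -0.50 and -0.22, siNONO over siCtrl). The other 6 did not pass, with Ptprc at 0.15, Itgam at 0.04, Cd68 at -0.04, C1qa and C1qb at -0.06 each and Lyz2 at -0.12. All 8 markers of pericytes and smooth muscle had counts, but 1 of them (Rgs5) was under 1 CPM in every library. Their sum lay between 466 and 486 CPM in siNONO and between 500 and 503 CPM in siCtrl, most of it from Pdgfrb (-0.03, not past the threshold). Of 7 tested, Myh11 (-0.88), Cnn1 (-0.88), Cspg4 (-0.58) and Kcnj8 (-0.28) were lowered and Des (0.36) raised, and Abcc9 had -0.01. Cardiomyocyte markers (6 of 9 with counts, 5 of them under 1 CPM in every library) summed to 107 to 116 CPM in siNONO and 143 to 159 CPM in siCtrl, nearly all from Tnnt2. Of 2 tested, Tnnt2 (-0.45) was lowered and Tnni3 (-0.49) did not pass. Endothelial markers (7 of 8 with counts, 3 of them under 1 CPM in every library) summed to 37.7 to 40.5 CPM in siNONO and 36.8 to 38.4 CPM in siCtrl, most of it from Egfl7 and Tek. Of 5 tested, Tek (0.24) was raised, and Pecam1 (-0.50), Cdh5 (0.12), Egfl7 (-0.03) and Vwf (-0.02) did not pass. Epicardial and mesothelial markers (6 of 6 with counts, 2 of them under 1 CPM in every library) summed to 103 to 106 CPM in siNONO and 101 to 108 CPM in siCtrl. Whether these markers came from other cells in the cultures, and what part such cells had in the results below, was not tested. In bulk RNA fewer cells of a type and less RNA per cell cannot be told apart.

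Of the lectins, Lman2 (chromosome 17), a receptor that cycles between the ER, the Golgi and their intermediates, stood at 41.9% of its siCtrl level in siNONO libraries. It had 95.7, 104 and 92.8 CPM in siNONO replicates 1, 2 and 3, against 245, 227 and 225 CPM in siCtrl replicates 1, 2 and 3. The highest siNONO library was thus below the lowest siCtrl library by more than the range of either group. The means were 97.3 ± 5.54 CPM in siNONO and 233 ± 11.1 CPM in siCtrl (SD, n = 3 each). This is a log2 fold change (siNONO over siCtrl throughout) of -1.26 ± 0.05 (standard error, SE). By log2 fold change Lman2 was number 60 of the 2292 genes lowered among all genes tested.

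Its paralog Lman1 (chromosome 18), the lectin that carries coagulation factors and other glycoproteins to the intermediate compartment, moved far less. Lman1 had 137, 139 and 142 CPM in siNONO replicates 1, 2 and 3, against 151, 149 and 151 CPM in siCtrl replicates. The groups did not overlap, yet the log2 fold change was only -0.11 ± 0.04 (SE). It ran from -0.12 to -0.10 without 1 of the 6 libraries in turn, and was -0.06 when libraries were scaled by their totals only.

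The third lectin, Lman2l, could not be measured with any precision from the row that bears its symbol. That row (chromosome 9) held 13, 9 and 21 counts in siNONO replicates 1, 2 and 3 and 12, 12 and 15 counts in siCtrl replicates, and its log2 fold change of -0.02 had a 95% interval of -0.76 to 0.73. A second row on chromosome 9, LOC120094667, carries almost the same description, a lectin of the LMAN2-like type, and held 677, 740 and 798 counts in siNONO and 741, 796 and 928 counts in siCtrl replicates 1, 2 and 3. The median count of this second row was 768.5, against 12.5 in the row named Lman2l. LOC120094667, named after its values were seen, averaged 22.6 ± 0.638 CPM in siNONO and 28.1 ± 0.532 CPM in siCtrl (SD, n = 3 each), and its log2 fold change was -0.31 ± 0.05 with an edgeR adjusted p of 4.67e-04. Whether the authors' counting split 1 gene over both rows is not recorded in the files, so the level of Lman2l is uncertain.

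Mcfd2 (chromosome 6), the calcium-binding partner with which LMAN1 forms a cargo receptor, was higher after transfection with the siRNA. It stood at 134, 128 and 134 CPM in siNONO replicates 1, 2 and 3, against 95.9, 94.3 and 93.0 CPM in siCtrl replicates. All siNONO libraries lay above all siCtrl libraries, and the siCtrl values differed little from each other. Mean levels were 132 ± 3.61 CPM in siNONO and 94.4 ± 1.44 CPM in siCtrl (SD, n = 3 each), and the log2 fold change was 0.48 ± 0.04 (SE), or 140% of the siCtrl level. Among the 10 genes it had the highest fold change, and those of Mcfd2 and Lman1 were of opposite sign.

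The p24 proteins TMED2 and TMED10 form a complex that sorts GPI-anchored proteins and takes part in both COPII and COPI vesicle formation. Their mRNAs were the most abundant of the 10 and stayed close to the siCtrl level. Tmed2 (chromosome 12) ranged from 415 to 427 CPM in siNONO and from 417 to 434 CPM in siCtrl libraries, a log2 fold change of -0.01 with a 95% interval of -0.09 to 0.08. Its sign turned with scaling by total library size alone (0.04). Tmed10 (chromosome 6) ranged from 371 to 383 CPM in siNONO and from 351 to 377 CPM in siCtrl, a log2 fold change of 0.04 (95% interval -0.05 to 0.13). The groups overlapped for both genes, and intervals of this width leave room for differences of up to about 0.13 on the log2 scale.

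Within the coat, the 2 SEC23 paralogs did not share a pattern. Sec23b (chromosome 3), the SEC23 form whose loss causes a congenital anaemia in humans, had 36.4, 36.1 and 38.0 CPM in siNONO replicates 1, 2 and 3, against 30.8, 31.0 and 33.7 CPM in siCtrl replicates. The groups did not overlap, and its log2 fold change was 0.21 ± 0.05 (SE), 116% of the siCtrl level. Sec23a (chromosome 6), the form tied to procollagen export, had 76.3, 70.7 and 78.0 CPM in siNONO, against 75.9, 80.5 and 78.4 CPM in siCtrl replicates 1, 2 and 3, with overlapping groups and a log2 fold change of -0.06 (95% interval -0.16 to 0.04). In the RefSeq annotation of assembly GRCr8, a later build than that named for the files, Sec23b overlaps Rbbp9 and Sec23a overlaps Gemin2, so reads of these pairs could be mixed where counting ignored strand. Rbbp9, at 29.9 ± 1.29 CPM in siNONO and 31.1 ± 2.44 CPM in siCtrl, had a log2 change of -0.05 ± 0.06 (edgeR adjusted p = 0.551), and Gemin2, at 10.5 ± 0.410 CPM in siNONO and 12.3 ± 1.13 CPM in siCtrl, one of -0.22 ± 0.08 (edgeR adjusted p = 0.0540). Both were looked up after the values of Sec23a and Sec23b were seen. Gemin2 passed without siCtrl replicate 2 (edgeR adjusted p = 0.0461), and with all libraries when no filter was used (edgeR adjusted p = 0.0457).

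Sec24d (chromosome 2), a cargo-binding subunit of the inner coat, and Sec31a (chromosome 14), the main subunit of the outer cage, overlapped between groups. Sec24d ranged from 113 to 121 CPM in siNONO and from 113 to 122 CPM in siCtrl, with a log2 fold change of -0.03 (95% interval -0.13 to 0.07). This sign turned with total library size (0.02). Sec31a ranged from 224 to 230 CPM in siNONO and from 213 to 226 CPM in siCtrl, with a log2 fold change of 0.04 (95% interval -0.05 to 0.13).

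**Figure D1:**
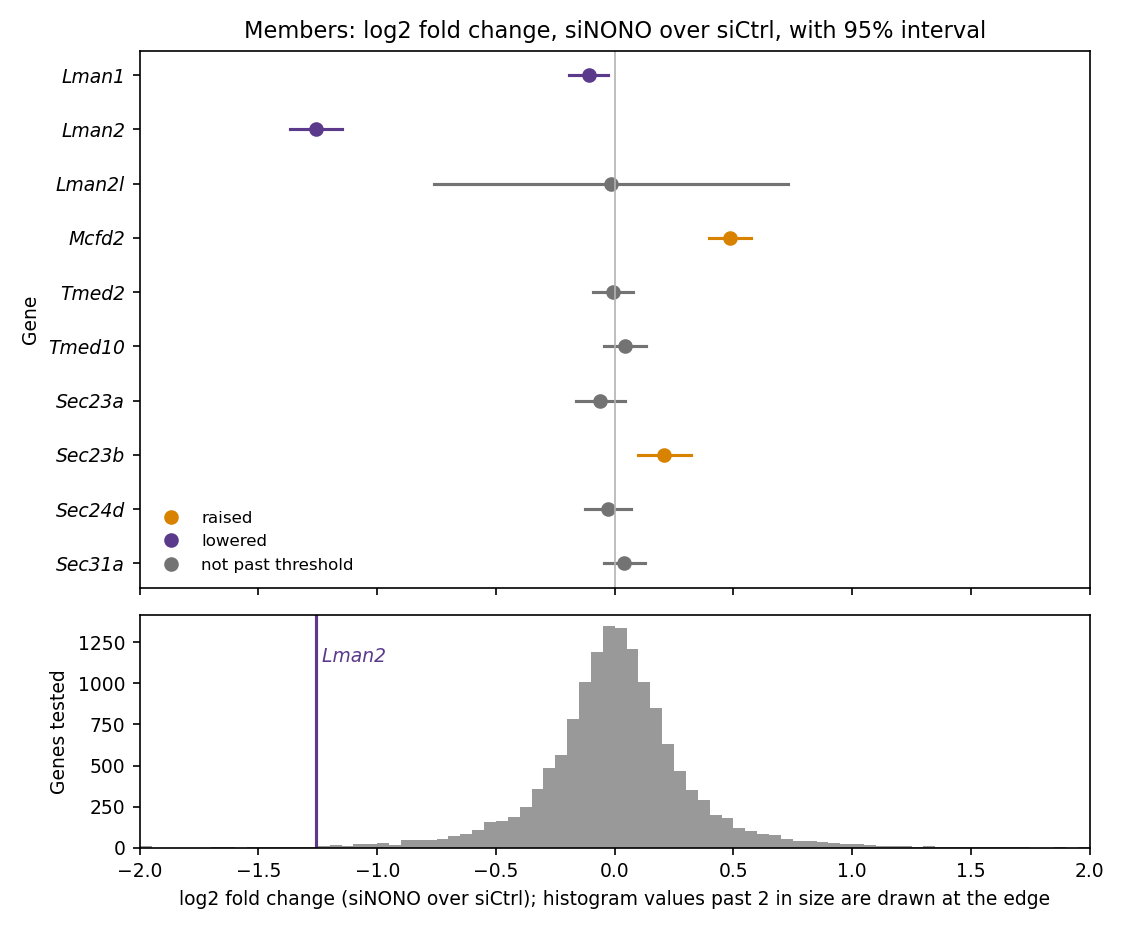
Upper panel: log2 fold change of each of the 10 genes (siNONO over siCtrl, x axis) as a point with its 95% interval; colours show whether the gene was past the edgeR threshold. Lower panel: histogram of the same quantity over the 14412 genes tested, with Lman2 marked at -1.26; the other 9 genes lie between -0.11 and 0.48.

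Counted together at an adjusted p threshold of 0.05 (edgeR's quasi-likelihood test, Benjamini-Hochberg over all genes tested), 2 of the 10 genes were raised (Mcfd2 and Sec23b) and 2 lowered (Lman2 and Lman1), and 6 did not pass. Over all genes tested 16.2% were raised and 15.9% lowered, 32.1% in all. Groups did not overlap for 4 of the 10 genes, against 45.0% of all genes tested. The median log2 fold change of the 10 genes was -0.01, beside 0.00 for all genes tested. Since the comparison itself was used to choose the group, nothing is read from these counts. Without any 1 library the lowered count was 1, because Lman1 dropped out, and the raised count stayed at 2. Lman2l was counted by the row of that symbol. LOC120094667, outside the 10, was lowered (edgeR adjusted p = 4.67e-04), so the lowered count depends on which row stands for Lman2l.

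Set by level per length, as FPKM (the length-scaled unit of the authors' second table), the members differed widely. In siNONO libraries the order ran Tmed10 (270 ± 2.66 FPKM), Tmed2 (195 ± 1.77), Lman2 (73.0 ± 3.70), Mcfd2 (67.1 ± 2.25), Sec31a (45.8 ± 0.885), Lman1 (27.9 ± 0.457), Sec24d (27.1 ± 1.05), Sec23a (18.2 ± 1.04), Sec23b (11.4 ± 0.352) and Lman2l (0.573 ± 0.230; SD, n = 3 each). Of neighbours in that order Lman1 and Sec24d overlapped, and the lowest Lman2 library (69.9 FPKM) was next to the highest Mcfd2 library (68.5 FPKM). In siCtrl libraries the order of means was the same: Tmed10 (253 ± 7.66 FPKM), Tmed2 (189 ± 1.44), Lman2 (168 ± 5.83), Mcfd2 (46.3 ± 0.50), Sec31a (43.1 ± 1.78), Lman1 (29.1 ± 0.297), Sec24d (26.7 ± 1.42), Sec23a (18.4 ± 0.795), Sec23b (9.52 ± 0.531) and Lman2l (0.563 ± 0.0252; SD, n = 3 each). No 2 neighbours overlapped there, and the gap between Lman2 and Mcfd2 was wide. The last place of Lman2l rests on the row of that symbol alone, so it is uncertain. LOC120094667 had 10.76, 10.63 and 11.28 FPKM in siNONO and 12.62, 13.16 and 13.36 FPKM in siCtrl replicates 1, 2 and 3. Those values overlapped Sec23b in siNONO and lay above it in siCtrl. Lman2 was one of the abundant mRNAs of the control cells: 97.2% of the genes tested had a lower mean FPKM in siCtrl, beside 98.0% for Tmed10, 97.4% for Tmed2, 85.1% for Lman1 and 66.4% for Sec23b.

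**Figure D2:**
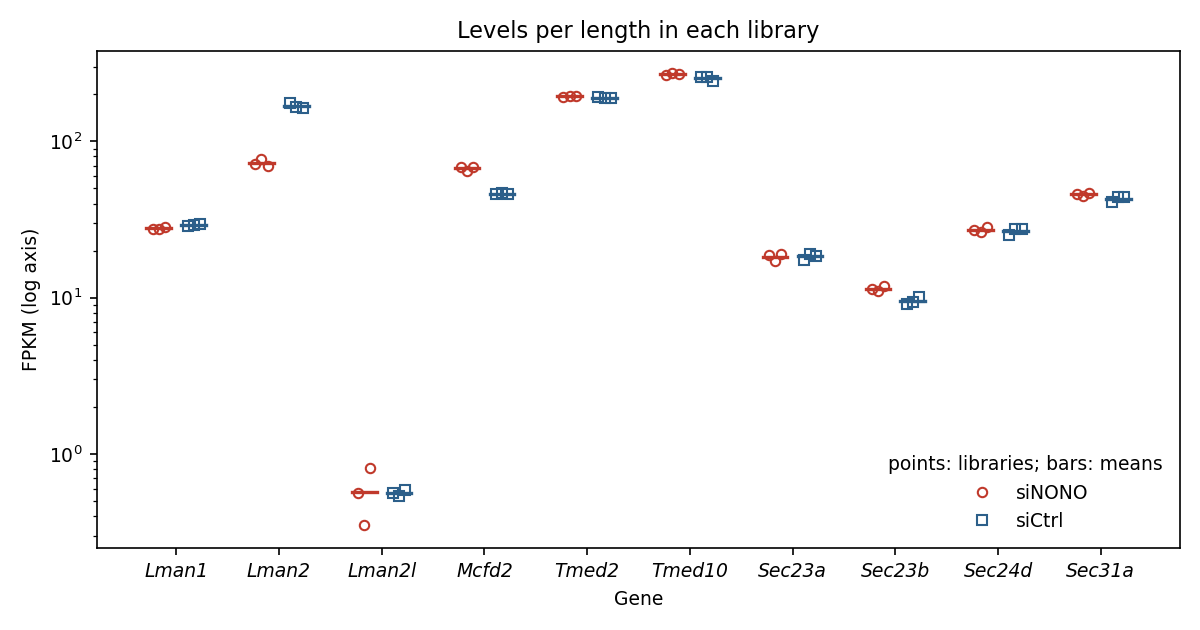
FPKM of the 10 genes on a log axis, siNONO libraries (circles) left of siCtrl libraries (squares), with bars at the group means (n = 3 each). Lman2 sits between 69.9 and 77.1 FPKM in siNONO and between 164 and 175 FPKM in siCtrl. Mcfd2 sits between 64.5 and 68.5 FPKM in siNONO and between 45.8 and 46.8 FPKM in siCtrl. The other genes have smaller gaps between their group means. Lman2l, drawn from the row of that symbol, runs from 0.35 to 0.81 FPKM in siNONO and from 0.54 to 0.59 FPKM in siCtrl.

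Shares within families show the same values as proportions of FPKM. Lman2 made up 71.9%, 73.3% and 70.5% of the summed FPKM of Lman1, Lman2 and Lman2l in siNONO replicates 1, 2 and 3, against 85.6%, 84.8% and 84.5% in siCtrl replicates. With LOC120094667 added to the sum, the mean share was 64.9% ± 1.66 in siNONO and 79.8% ± 0.807 in siCtrl (SD, n = 3 each). Lman2 therefore remained the most abundant of these lectin mRNAs in both groups. Of the LMAN1-MCFD2 pair, Mcfd2 held 71.2%, 70.0% and 70.6% of the summed FPKM in siNONO and 61.7%, 61.6% and 60.9% in siCtrl replicates 1, 2 and 3. Of the SEC23 pair, Sec23b held 38.5% ± 0.842 in siNONO and 34.1% ± 1.24 in siCtrl, without overlap between groups. Tmed10 held 58.0% ± 0.0572 of the Tmed2 and Tmed10 sum in siNONO and 57.2% ± 0.668 in siCtrl.

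Sec24d was the leading SEC24 mRNA of these cells, with 46.9% ± 0.800 of the summed FPKM of Sec24a to Sec24d in siNONO and 49.1% ± 0.827 in siCtrl. Sec24c followed with 16.9 ± 0.403 FPKM in siNONO and 15.7 ± 0.455 FPKM in siCtrl, then Sec24b with 9.0 ± 0.181 FPKM in siNONO and 7.18 ± 0.390 FPKM in siCtrl. Sec24a was the lowest, with 4.82 ± 0.310 FPKM in siNONO and 4.82 ± 0.217 FPKM in siCtrl. Sec31a supplied 99.9% of the SEC31 sum in siNONO and 99.8% in siCtrl, Sec31b being at or under 0.12 FPKM in every library.

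**Figure D3:**
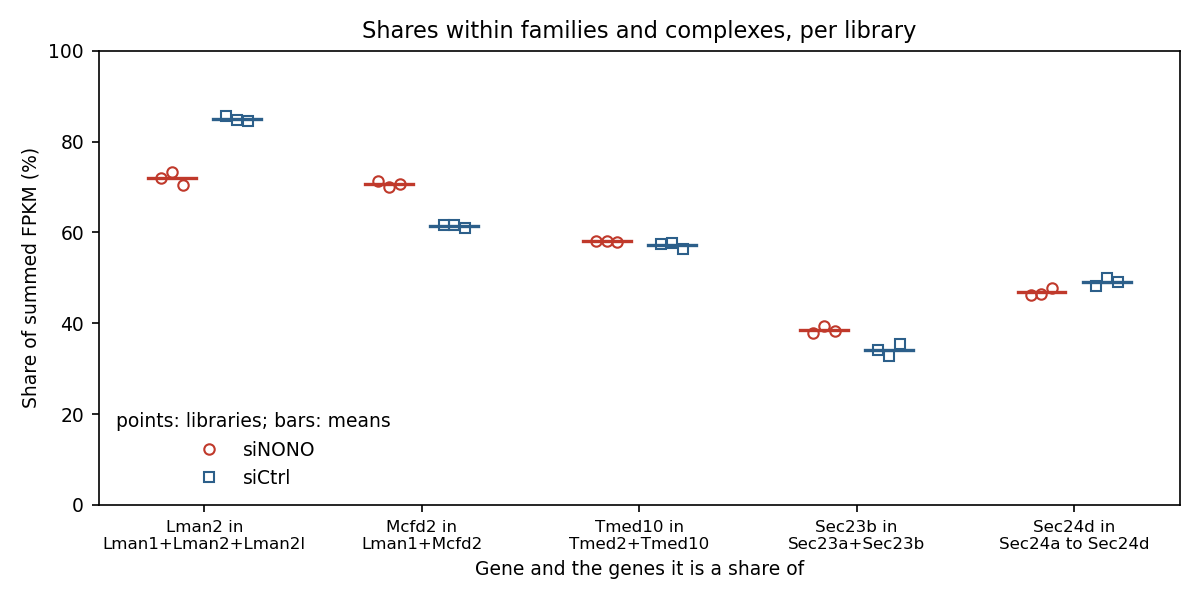
Share of summed FPKM (percent) held by 1 gene within a family or complex, per library, siNONO (circles) left of siCtrl (squares), with bars at the means. Lman2 has the widest gap, at means of 71.9% in siNONO and 85.0% in siCtrl, followed by Mcfd2 within the LMAN1-MCFD2 pair (70.6% in siNONO and 61.4% in siCtrl).

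The other genes of ER-Golgi transport were counted by list, against 16.2% raised and 15.9% lowered over all genes tested, and no list was tested as a whole. Among the other COPII and ER exit site genes 1 of 16 tested was raised and 3 were lowered (edgeR, all genes), 12 did not pass, and 32.1% of all genes were called in either direction. This list had a median log2 fold change of -0.05. Sec24b rose, at 50.8 ± 0.689 CPM in siNONO and 42.0 ± 1.89 CPM in siCtrl (SD, n = 3 each), and its log2 fold change was 0.27 ± 0.05 with an edgeR adjusted p of 5.26e-04. Both forms of SAR1, the GTPase that starts coat assembly, fell slightly: Sar1a by 0.17 ± 0.04 (edgeR adjusted p = 0.00547) and Sar1b by 0.15 ± 0.05 (edgeR adjusted p = 0.0322) on the log2 scale. The call of Sar1b ended without siCtrl replicate 1 (edgeR adjusted p = 0.0999), siCtrl replicate 2 (0.0708), siNONO replicate 1 (0.110) and siNONO replicate 3 (0.107). The scaffold gene Sec16a, named after its values were seen, was the remaining lowered gene (-0.14 ± 0.05; edgeR adjusted p = 0.0440), a call that ended without siCtrl replicate 2 (0.102), siCtrl replicate 3 (0.127), siNONO replicate 1 (0.0742) and siNONO replicate 2 (0.157). In the 6 fits without 1 library the lowered count was 1 or 2.

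The list of other cargo receptors held 19 tested genes: p24 proteins, ERGIC proteins, cornichons, BAP proteins, KDEL receptors, Surf4, Yif1a and Yipf5. Of these 7 were lowered and 1 raised, beside 15.9% lowered and 16.2% raised over all genes tested, with a median log2 fold change of -0.09. KDELR proteins return escaped ER chaperones from the Golgi, and all 3 of their genes fell. Kdelr2 averaged 175 ± 8.04 CPM in siNONO and 229 ± 4.45 CPM in siCtrl (SD, n = 3 each), and its log2 fold change was -0.39 ± 0.04 with an edgeR adjusted p of 1.54e-05. Kdelr3 (-0.25 ± 0.04; edgeR adjusted p = 4.53e-04) and Kdelr1 (-0.16 ± 0.04; edgeR adjusted p = 0.00892), both named after their values were seen, fell less, and the call of Kdelr1 ended without siNONO replicate 3 (edgeR adjusted p = 0.0533). Tmed4, another p24 gene, had -0.35 ± 0.05 (edgeR adjusted p = 1.78e-04). Bcap29, an ER membrane protein of the BAP family, was the raised gene, at 36.9 ± 1.2 CPM in siNONO and 24.8 ± 1.03 CPM in siCtrl, a log2 change of 0.58 ± 0.05 (edgeR adjusted p = 2.29e-06). Its paralog Bcap31, named after its value was seen, had -0.09 ± 0.05 (edgeR adjusted p = 0.161).

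COPI vesicles, which carry receptors back from the Golgi to the ER, depend on the GTPase ARF1, and Arf1 showed the largest rise of all the transport genes listed. It averaged 469 ± 4.54 CPM in siNONO and 308 ± 10.2 CPM in siCtrl (SD, n = 3 each), and its log2 fold change was 0.61 ± 0.04 with an edgeR adjusted p of 1.51e-07. The coatomer subunit Arcn1 rose by 0.24 ± 0.04 (edgeR adjusted p = 4.32e-04). In this list of 15 tested genes 4 rose and 0 fell by edgeR (0 also fell at an unadjusted p under 0.05 and with DESeq2), with a median of 0.02. The share over all genes tested was 16.2% raised and 15.9% lowered. Without 1 library the raised count was 2 to 4, and without siCtrl replicate 2 there was 1 lowered gene.

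Tethers and SNARE proteins dock and fuse the vesicles. Of 24 tested, 3 were raised and 5 lowered, beside 16.2% raised and 15.9% lowered over all genes tested, and the median log2 fold change was -0.06; without 1 library the counts ran from 2 to 5 raised and from 2 to 4 lowered. Golga2, the Golgi matrix tether GM130, rose by 0.30 ± 0.04 (edgeR adjusted p = 1.40e-04) and Bnip1, an ER SNARE, by 0.25 ± 0.06 (edgeR adjusted p = 0.00841). Its ER SNARE partners Use1 (-0.26 ± 0.05; edgeR adjusted p = 0.00150) and Stx18 (-0.22 ± 0.05; edgeR adjusted p = 0.00575) fell.

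Lectins that watch over glycoprotein folding in the ER were raised in 2 and lowered in 2 of 9, with a median of -0.10. Beside this, 16.2% of all genes tested were raised and 15.9% lowered. Edem1, which directs misfolded glycoproteins to degradation, had the largest fall of this list, at 71.6 ± 2.12 CPM in siNONO and 107 ± 3.63 CPM in siCtrl (SD, n = 3 each), and its log2 fold change was -0.58 ± 0.04 with an edgeR adjusted p of 5.12e-07. Edem2 rose by 0.25 ± 0.05 (edgeR adjusted p = 0.00329). The chaperones calreticulin and calnexin split, Calr with 0.14 ± 0.05 (edgeR adjusted p = 0.0253) and Canx with -0.13 ± 0.04 (edgeR adjusted p = 0.0334). The Calr call ended without siCtrl replicates 2 (edgeR adjusted p = 0.102) and 3 (0.0723) and siNONO replicates 1 (0.0799) and 2 (0.0992). The Canx call ended without siCtrl replicates 2 (0.0835) and 3 (0.0601) and siNONO replicates 1 (0.0936) and 2 (0.107). Without 1 library the raised count was 1 to 2 and the lowered count 1 to 3.

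The list of known cargo of LMAN1, with or without MCFD2, held 5 genes. F5 (at most 0.04 FPKM in any library) and Serpina1 (at most 0.01 FPKM) were not among the genes tested. The 3 tested genes were F8, Ctsc and Ctsz, with a median of -0.18. Of these 1 was lowered and 0 raised by edgeR (0 raised also at an unadjusted p under 0.05 and with DESeq2). The shares over all genes tested were 15.9% lowered and 16.2% raised. Ctsc, cathepsin C, had a log2 change of -0.32 ± 0.06 (edgeR adjusted p = 0.00105). Of the factors known to regulate COPII and ER genes, 2 of 10 were raised and 3 lowered (median -0.09), beside those same shares over all genes. Creb3l1, an ER-bound transcription factor that promotes secretion in collagen-producing cells, fell by 0.25 ± 0.04 on the log2 scale (edgeR adjusted p = 4.28e-04), and Atf6, a sensor of ER stress, by 0.17 ± 0.04 (edgeR adjusted p = 0.00720). Atf6 lost its call without siNONO replicate 1 (edgeR adjusted p = 0.0530). Creb3l2, known in mouse to drive Sec23a, had 0.15 ± 0.05 (edgeR adjusted p = 0.0309) and Ern1 0.20 ± 0.07 (edgeR adjusted p = 0.0424). Without 1 library the raised count was 0 to 2, since Creb3l2 ended without siCtrl replicates 1 (0.0512) and 2 (0.0803) and siNONO replicates 1 (0.159) and 3 (0.121), and Ern1 without siCtrl replicates 1 (0.0950) and 3 (0.177) and every siNONO replicate (0.0844 to 0.114). The lowered count was 1 to 3.

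**Figure D4:**
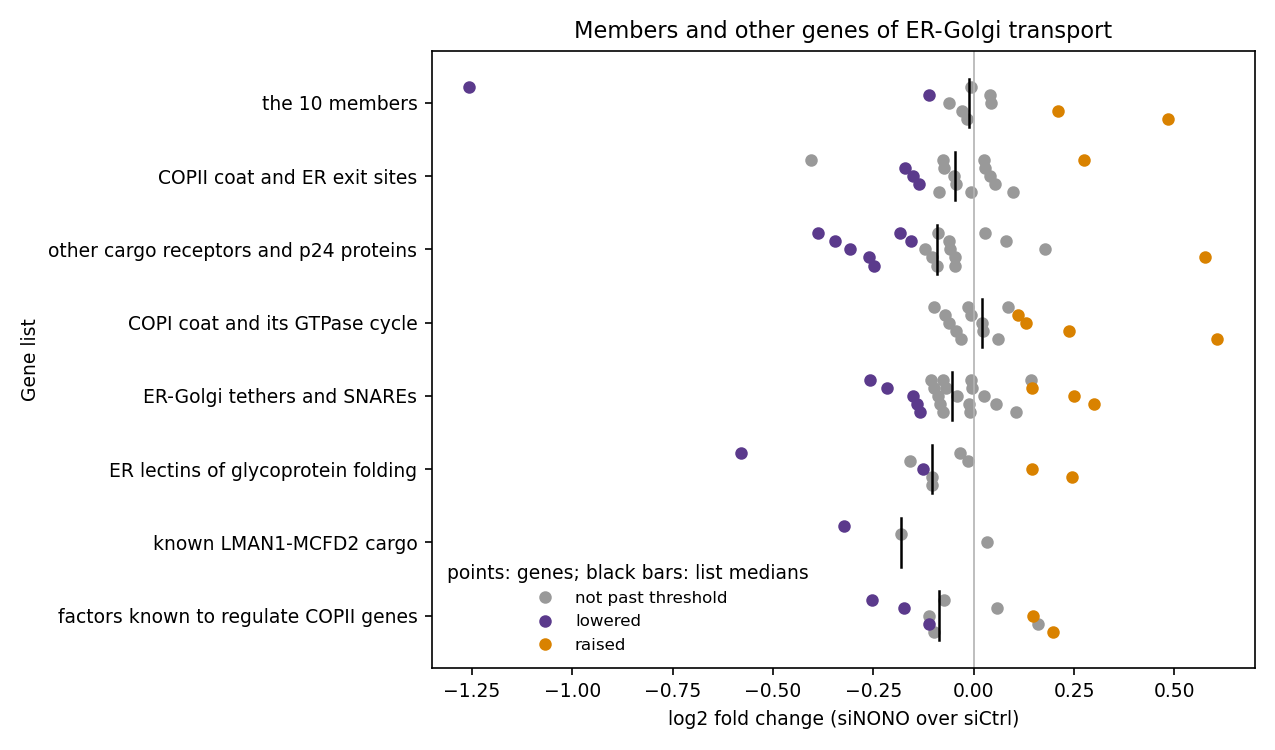
Log2 fold change (siNONO over siCtrl, x axis) of each tested gene in the 10-gene group and in 7 lists of other genes of ER-Golgi transport, with black bars at list medians and colours for the edgeR call. Lman2 at -1.26 lies outside the range of all other genes shown, which runs from Edem1 at -0.58 to Arf1 at 0.61. The group was chosen by the fall of Lman2 in this comparison, so its place here is a description only.

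Genes next to Lman2 on chromosome 17 were examined after its value was known. In the gene order of RefSeq's GRCr8 annotation, used for names and order only, the tested genes before it are Prr7, Grk6 and Rgs14, and those after it are Mxd3, Prelid1 and Rab24. Of these 6 genes 0 were lowered at the edgeR threshold (0 also with DESeq2, and 2, Prelid1 and Rab24, at an unadjusted p under 0.05). The share over all genes tested was 15.9% lowered and 16.2% raised, and with so few genes nothing is read from this count. Log2 fold changes lay between -0.11 and -0.07 for all but Mxd3. Prelid1 averaged 239 ± 12.1 CPM in siNONO and 258 ± 14.3 CPM in siCtrl (SD, n = 3 each), and its log2 fold change was -0.11 ± 0.05 with an edgeR adjusted p of 0.108, and Rab24 had -0.11 ± 0.05 (edgeR adjusted p = 0.0947). Prelid1 passed without siNONO replicate 2 (edgeR adjusted p = 0.0399). Mxd3, a repressor of the MAX network at 0.966 ± 0.244 CPM in siNONO and 0.516 ± 0.242 CPM in siCtrl, had 0.94 ± 0.33 (edgeR adjusted p = 0.0437) with overlapping groups. That call ended without siCtrl replicate 2 (0.109), siCtrl replicate 3 (0.188), siNONO replicate 2 (0.167) and siNONO replicate 3 (0.0802).

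**Figure D5:**
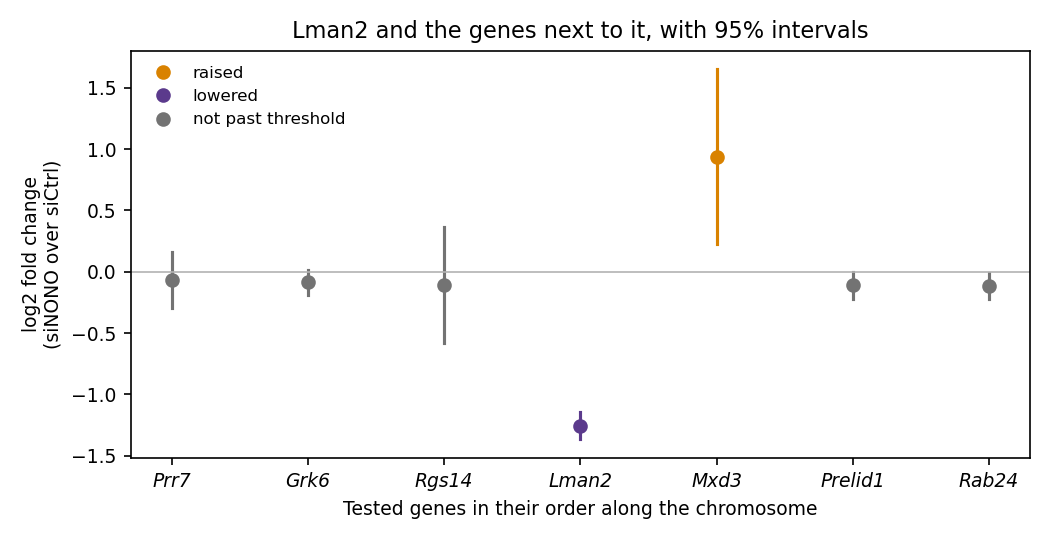
Log2 fold change (siNONO over siCtrl, y axis) with 95% intervals for Lman2 and the 3 nearest tested genes on each side, in gene order and not to distance. Lman2 is at -1.26, Mxd3 at 0.94 with the widest interval, and the other 5 genes lie between -0.11 and -0.07.

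The genes whose pattern over the 6 libraries was most like that of Lman2, by Euclidean distance between centred log2 CPM values among 10179 eligible genes, were Ramp1, Gja1, A2m, Upk1b and Rgs2, at distances of 0.172, 0.187, 0.201, 0.210 and 0.246. Ramp1, a partner of the calcitonin receptor-like receptor, averaged 30.8 ± 1.81 CPM in siNONO and 69.5 ± 4.14 CPM in siCtrl (SD, n = 3 each), and its log2 fold change was -1.17 ± 0.06. A2m, the secreted protease inhibitor alpha-2-macroglobulin, averaged 140 ± 4.64 CPM in siNONO and 309 ± 5.56 CPM in siCtrl (-1.14 ± 0.04). Gja1, connexin 43, had -1.22 ± 0.04, Upk1b, a tetraspanin, -1.14 ± 0.07 and Rgs2, a regulator of G protein signalling, -1.12 ± 0.05. Upk1b is also one of the 6 epicardial and mesothelial markers counted above. Of those, 2 of 5 tested were raised and 1, Upk1b, lowered, beside 16.2% raised and 15.9% lowered over all genes tested. The likeness describes these 6 libraries and rests mostly on the difference between the groups.

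Replicates of 1 group lay close together for 9 of the 10 genes. The coefficient of variation of CPM ran from 1.45% (Tmed2) to 5.69% (Lman2) in siNONO and from 0.897% (Lman1) to 5.06% (Sec23b) in siCtrl, where counting alone gives 0.875% to 3.06%. Lman2l was the exception, at 39.4% in siNONO and 4.64% in siCtrl with a counting error of 27.1%, so that a moderate change of that row was not detectable at this depth.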

How the data were processed

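RNA-seq of 6 libraries of rat cardiac fibroblasts was analysed, 3 siNONO and 3 siCtrl, grouped by title. The submitters' processing notes name HISAT2, edgeR and the build mRatBN7.2. No version is named there, and how reads were counted, with or without strand, was not given in the sources used here. Per the labels' protocols, a stranded poly(A) kit was used. The deposited count table holds whole reads per gene (21378 genes); the deposited FPKM table was scaled by the authors for gene length and library size. There were 0 columns of other samples. In siNONO and siCtrl libraries the upper limit behind a 0, set at 3 counts, equals 0.0899 to 0.108 CPM (counting error only). Replicates of a group were not copies of each other (chi-square over its degrees of freedom lay between 3.18 and 7.58).

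Counts were fitted in R 4.3.3 with edgeR 4.0.16 (filterByExpr, 14412 genes; TMM; glmQLFit and glmQLFTest, two-sided; Benjamini-Hochberg over all genes at 0.05; 4 residual degrees of freedom). SE is the log2 fold change over the square root of F, and 95% intervals use the fit's total degrees of freedom. The script was tested on simulated counts. Alternatives were other scalings, filters, DESeq2 1.42.0, limma 3.58.1 (voom, and trend on log2(FPKM + 1) and log2(FPKM + 0.1)), a replicate block, an adjusted p of 0.01, and fits without each single library.

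Members and lists were chosen with earlier results of these data known. Named genes were the members, Nono, from each list up to 2 largest rises and 2 largest falls past the threshold, and the 5 genes closest to Lman2 among those with a mean of at least 5 CPM and a symbol not starting with LOC; others are said to have been named later. Of 23 listed cargo receptor genes 20 were in the count table and 3 were not analysed here. No set test was run, and sequences were not used here. Figures were drawn with matplotlib 3.10.9.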

Additional observations from a re-analysis of the deposited data

How the results depend on the processing

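Over the 16 alternatives, all refits of the libraries that chose the members and so no support for them, the log2 fold change was -1.31 to -1.20 for Lman2, 0.47 to 0.54 for Mcfd2 and 0.18 to 0.26 for Sec23b. The lowered count of the 10 members was 1, Lman1 being lost, with total library size, no filter, log2(FPKM + 1), log2(FPKM + 0.1), the replicate block, a threshold of 0.01 and in every fit without 1 library; their raised count was 2 in each. The genes raised were 50.5% of all calls, against 65.5% with total library size, 64.7% with log2(FPKM + 1) and 64.3% with log2(FPKM + 0.1), where the median of all genes moved to 0.05, 0.03 and 0.05. At a threshold of 0.01, 1428 genes were raised and 1424 lowered; without 1 library 1675 to 2243 were raised and 1694 to 2143 lowered.

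For the lists, total library size gave 1 lowered COPII gene, 5 raised and 2 lowered tethers and SNAREs and 1 lowered ER lectin. Both FPKM fits gave 1 lowered COPII gene, 2 lowered tethers, 1 lowered ER lectin, and 1 raised and 1 lowered regulatory factor; the DESeq2 Wald test gave 1 raised regulatory factor. The threshold of 0.01 and the replicate block each gave 1 lowered COPII gene, 2 raised COPI genes, 2 lowered tethers, and 1 raised and 1 lowered ER lectin. Each gave 0 raised regulatory factors by edgeR (3 at an unadjusted p under 0.05, and 1 with the unblocked DESeq2 Wald test at an adjusted p of 0.05). Without 1 library the ranges were 1 to 2 lowered COPII genes, 2 to 4 raised and 0 to 1 lowered COPI genes, 2 to 5 raised and 2 to 4 lowered tethers, 1 to 2 raised and 1 to 3 lowered ER lectins, 1 to 2 raised and 6 to 7 lowered cargo receptors, and 0 to 2 raised and 1 to 3 lowered regulatory factors. The causes were not tested.

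Signs of genes that did not pass turned in a few fits. With total library size Tmed2 had 0.044, Sec24d 0.022 and Lman2l 0.034. With log2(FPKM + 1) and log2(FPKM + 0.1) Tmed2 had 0.042 in both and Sec24d 0.020 and 0.021. Without 1 library Tmed2 ran from -0.022 to 0.011, Lman2l from -0.36 to 0.24, Rbbp9 from -0.10 to 0.010, Prr7 from -0.13 to 0.011, Rgs14 from -0.22 to 0.092 and LOC102549675, which overlaps Tmed10 in the RefSeq annotation, from -0.022 to 0.24 (0.14 ± 0.26 with all libraries). DESeq2 adjusted p-values were 0.111 for Prelid1 and 0.191 for Rab24. A minimum of 1 CPM in 3 libraries left no value for Lman2l, Mxd3 and LOC102549675.

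Whether the shared replicate numbers pair the samples could not be decided. Deviations from the group means correlated at -0.0837, -0.136 and -0.00322 for numbers 1, 2 and 3, and siNONO replicate 2 correlated best with siCtrl replicate 1 (0.152). With 3 libraries per group and deviations centred within each group, such correlations cannot settle it. With the replicate block 1894 genes were raised and 1863 lowered, against 2338 and 2292 without it. Among the members counting error was largest for the row named Lman2l (27.1%) and at most 3.06% for the others. That highest value was for Sec23b, whose replicate spread was 2.71% in siNONO and 5.06% in siCtrl.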
